A study of Mus musculus with 20 samples.

Results

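Complement and coagulation factors are plasma proteins that are made mainly by hepatocytes and mostly circulate as inactive precursors. The 45 genes described here were chosen by function and found by symbol among the 46095 genes of the deposited count table, and all 45 passed the filter on low counts that kept 14440 genes. Liver RNA came from 20 mice aged 31 to 33 weeks, 5 in each of 4 groups. The groups were wild-type (WT) mice on the chow diet, WT mice on a NASH (non-alcoholic steatohepatitis) diet, and liver-specific Pck1-knockout mice (labelled Pck1-cKO, KO here) on each of these diets. Each diet was given for 24 weeks. Pck1 encodes cytosolic phosphoenolpyruvate carboxykinase, an enzyme of gluconeogenesis. The labels used here name neither the Cre driver nor the composition of the diets, and they give no sex.

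Complement runs through 3 starting routes, the classical route (C1 proteases), the lectin route (mannose-binding lectins and Masp proteases) and the alternative route (factors B, D and properdin), which meet at C3 and end in the C5b to C9 pore. Coagulation runs through proteases that activate each other in turn until thrombin (F2) cleaves fibrinogen to fibrin, and antithrombin, protein C and plasmin hold it in check or dissolve the clot. Liver supplies most of both systems, and in liver disease the plasma levels of clotting factors are used as a measure of how much protein the hepatocytes make.

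Each library held 9958935 to 20601955 counts, and the ranges of the 4 groups overlapped in part (KO chow 16688365 to 20601955, WT NASH 9958935 to 16193657). Levels are given as CPM, counts per 1e6 of the TMM-scaled library size. Pck1 was at 1707 to 4641 CPM in WT chow and 458 to 861 CPM in KO chow, and at 1701 to 2975 CPM in WT NASH and 300.4 to 542 CPM in KO NASH, so the genotypes did not overlap on either diet. By Y-linked counts 13 mice were male and 7 female: all of WT chow was male and all of WT NASH but replicate 4 female, while replicates 3 and 5 were the females of KO chow and replicate 2 the female of KO NASH. Gene length also separated libraries: the slope of a library's log2 CPM deviations on log2 exonic length, over 9480 genes, was -0.35 to -0.25 in 6 libraries (WT chow replicates 3 to 5, WT NASH replicate 4, KO chow replicates 4 and 5) and 0.01 to 0.19 in the other 14. Hepatocyte markers (Alb, Apoa1, Ttr, Tat and Hnf4a) summed to 42000 to 115031 CPM over all libraries. Fits with sex or this slope as terms are therefore given beside the members that passed the test, and the part of either in the results was not tested beyond those fits. Genes were called at an edgeR adjusted p under 0.05, and p-values measure the spread between these libraries.

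The promoter windows of 4 members are shown first, because these genes carry the main differences: C8a and C8b, neighbours on chromosome 4 that were both lower in KO chow, F11, called in 3 comparisons, and Cfd, the member with the largest difference. Each window is the 250 bases before the gene's start in RefSeq on GRCm38.p6, 5′ to 3′ on the gene's strand, and 35 of the 45 members had a window. Capitals mark matches, on either strand, to 5 motifs of liver regulators: GTTAAT (part of the HNF1 site), TTNNGCAA (C/EBP-type), TTCNNNGAA (STAT-type), CAAAGNNCA (HNF4-type) and CTGGGA (core of the interleukin-6 response element). The windows are C8a at chr4:104876399-104876648 (minus strand), C8b at chr4:104766067-104766316 (plus), F11 at chr8:45262032-45262281 (minus) and Cfd at chr10:79890603-79890852 (plus).
C8a: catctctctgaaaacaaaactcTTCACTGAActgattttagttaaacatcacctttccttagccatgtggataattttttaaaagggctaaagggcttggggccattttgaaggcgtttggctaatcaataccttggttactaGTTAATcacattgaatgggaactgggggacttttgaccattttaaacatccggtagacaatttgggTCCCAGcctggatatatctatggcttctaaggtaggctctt
C8b: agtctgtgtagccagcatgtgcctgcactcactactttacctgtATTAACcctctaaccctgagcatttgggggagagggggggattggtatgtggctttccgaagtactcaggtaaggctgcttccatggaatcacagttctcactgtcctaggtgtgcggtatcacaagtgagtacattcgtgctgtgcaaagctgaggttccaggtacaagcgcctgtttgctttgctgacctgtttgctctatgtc
F11: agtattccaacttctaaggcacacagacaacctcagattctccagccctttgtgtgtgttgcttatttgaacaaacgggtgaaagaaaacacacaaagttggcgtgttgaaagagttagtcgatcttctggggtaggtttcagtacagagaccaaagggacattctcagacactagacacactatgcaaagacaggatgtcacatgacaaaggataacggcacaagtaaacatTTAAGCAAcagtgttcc
Cfd: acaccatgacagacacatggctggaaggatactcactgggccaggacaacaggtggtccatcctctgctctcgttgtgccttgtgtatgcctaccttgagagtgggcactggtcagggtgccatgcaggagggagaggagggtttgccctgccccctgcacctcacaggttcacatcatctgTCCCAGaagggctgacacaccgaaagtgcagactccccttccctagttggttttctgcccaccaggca
The C8a window holds a STAT-type match 228 bases, an HNF1 match 107 bases and an interleukin-6 core 41 bases before the start. The C8b window holds an HNF1 match 206 bases before the start, so the pair shares that motif but not its position. F11 has a C/EBP-type match 17 bases before the start and Cfd an interleukin-6 core 68 bases before it. Of 32851 windows of this length, 6.43% hold the HNF1 letters, 9.56% the C/EBP-type, 7.02% the STAT-type, 5.49% the HNF4-type and 27.0% the interleukin-6 core. Among the 35 member windows the numbers were 8 (22.9%), 9 (25.7%), 6 (17.1%), 4 (11.4%) and 16 (45.7%), and the STAT-type and interleukin-6 matches overlap in the windows of F9 and Masp2. A match describes letters, not binding.

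Most of the 45 members stood lower in knockout than in WT liver on both diets, and few passed the test. In KO chow against WT chow 6 of 45 members (13.3%) were called, all lower (C1s1, C8a, C8b, F11, Klkb1 and Serpinf2), against 5.53% of all genes tested (2.49% lower and 3.03% higher). In KO NASH against WT NASH 4 members (8.89%) were called, with Mbl2, F11 and Klkb1 lower and Cfd higher. Of all genes 9.65% were called (4.74% lower and 4.9% higher), so the share of members was near the background. Cfd entered the test through KO NASH, the group where it is high, so its call is descriptive only. The median log2 difference of the members was -0.49 on chow, with 35 of 45 negative, and -0.58 on the NASH diet, with 35 of 45 negative, while the median of all genes was 0.00 in both. Lower in both genotype comparisons were 32 members (71.1%) and higher in both were 7 (15.6%), against 35.2% and 35.6% of all genes, and the 2 comparisons share no library. In whole liver, fewer cells of a type and less RNA per cell cannot be told apart. The members together took 3.62% to 5.24% of a WT chow library's counts and 1.64% to 3.68% of a KO chow library's. On the NASH diet their share was 3.61% to 5.32% for WT and 3.07% to 4.07% for KO.

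Diet alone moved few of these genes. In WT NASH against WT chow 1 member, F11, was called (2.22%, against 5.93% of all genes, 2.69% higher and 3.24% lower), and the median difference was -0.23 with 31 of 45 negative, against 0.01 for all genes. In KO NASH against KO chow 1 member, Thbd, was called (2.22%, against 3.29% of all genes, 1.77% higher and 1.52% lower), and the median was -0.19 with 30 negative, against -0.02. The interaction asks whether the genotype difference depends on the diet. It called no member by edgeR, against 0.139% of all genes (0.0554% higher and 0.0831% lower). For this interaction the unadjusted edgeR p was under 0.05 for Cfd (0.00311) and Cfp (0.0267) alone, and DESeq2 called Cfd alone. Unadjusted edgeR p-values under 0.05 were found for 7 members in WT NASH against WT chow and 17 in KO chow against WT chow. In KO NASH against WT NASH they were found for 24 and in KO NASH against KO chow for 7. Of all 14440 genes, 3191, 2795, 3701 and 3199 had such a p in these comparisons, and 1191 for the interaction. The members' share was thus below that of all genes for diet and above it for genotype. With sex as a term the numbers called were 0, 6, 4 and 2 in these comparisons, against 1.11%, 5.84%, 4.33% and 3.98% of all genes. With sex and the length slope as terms they were 0, 17, 5 and 4, against 5%, 13.8%, 10.6% and 9.36% of all genes, so the last 2 counts were near the background.

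**Figure D1:**
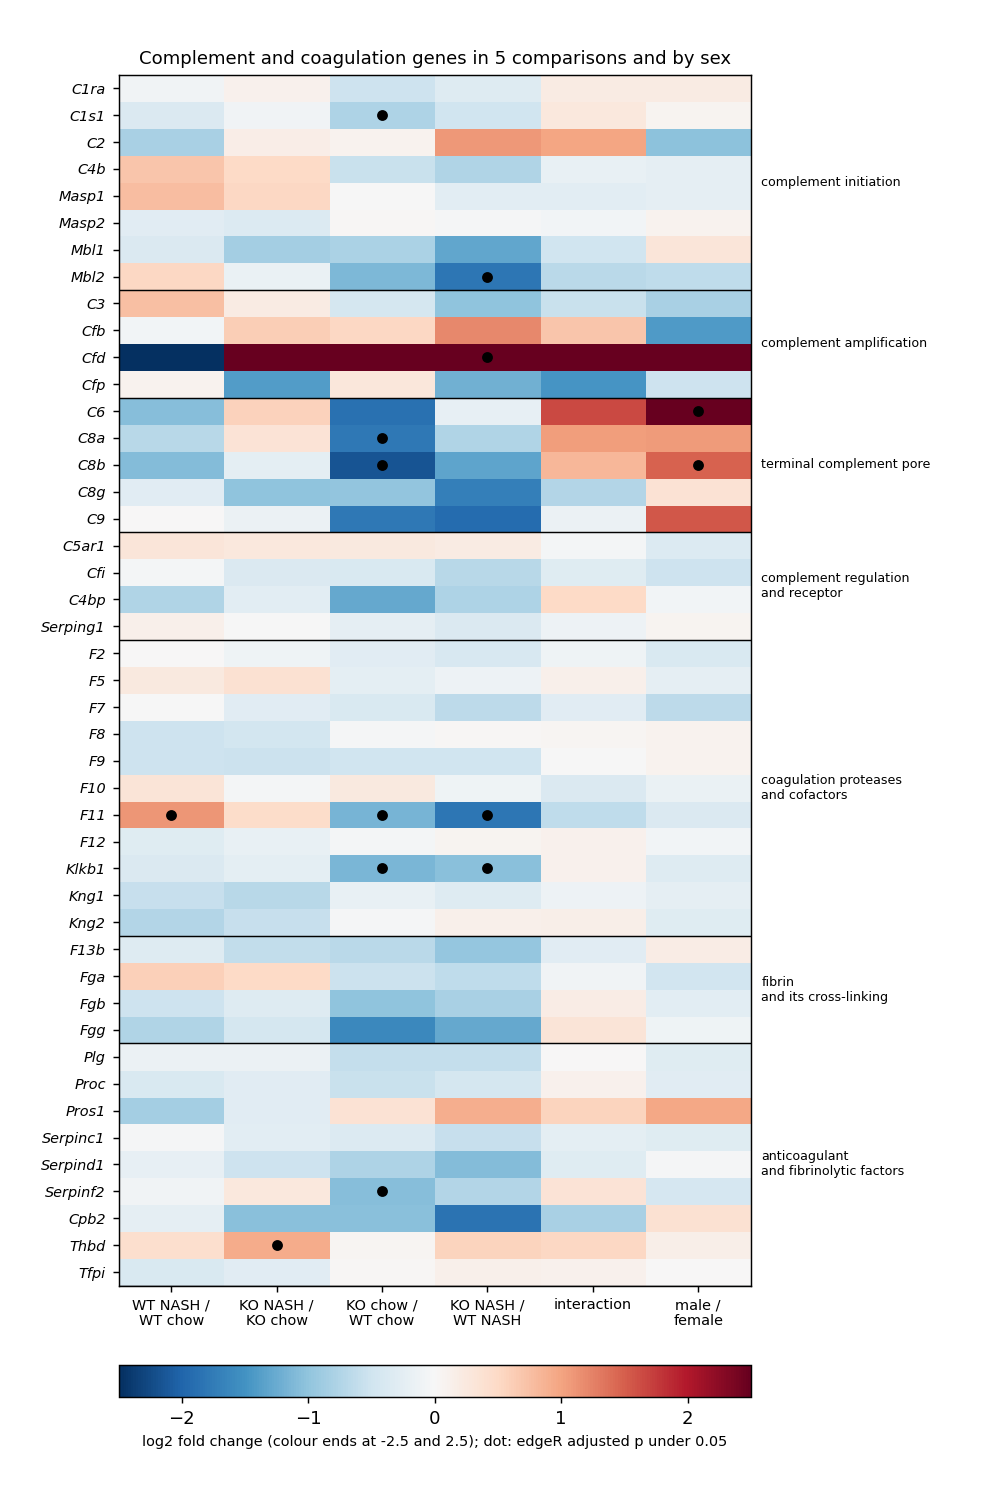
Log2 differences of the 45 members, in rows by role, for the 4 comparisons, the interaction and males against females, in columns; the colour stops at 2.5 on either side and a dot marks an edgeR adjusted p under 0.05. The genotype columns are mostly on the lower side, with 35 of 45 members negative in each, and dots are few.

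**Figure D2:**
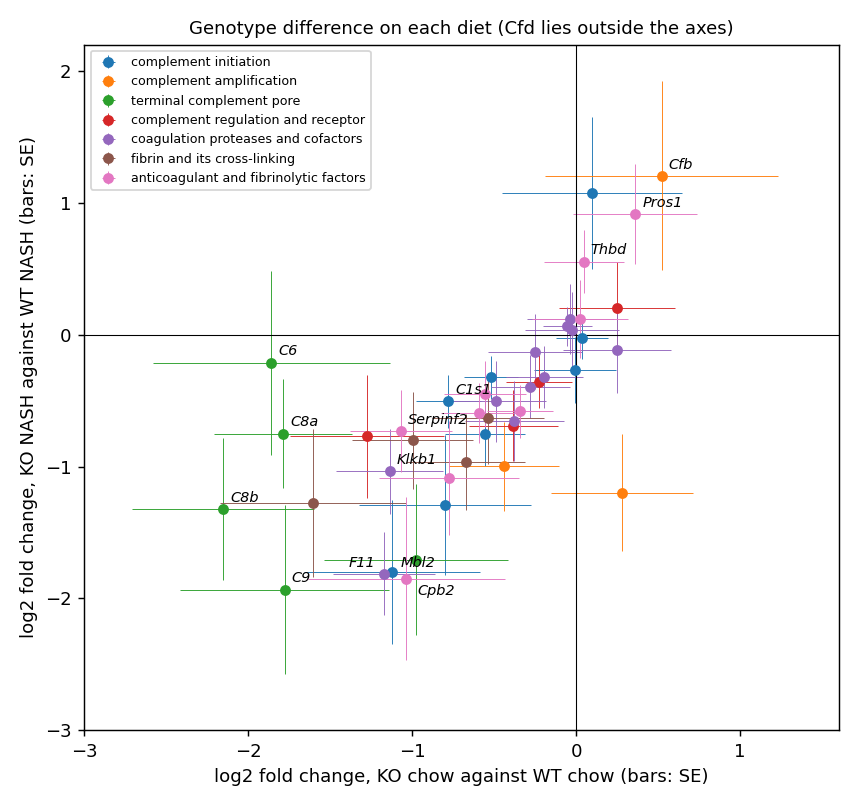
Log2 difference of KO NASH against WT NASH (vertical) plotted on that of KO chow against WT chow (horizontal), each point 1 member with its standard error on both axes. Of the 45 members 32 lie below 0 on both axes; Cfd, at 2.54 and 9.58, lies outside the plotted range.

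Among the members grouped by role, the terminal pathway had the lowest median in knockout liver on chow, in the fit without sex. C6, C8a, C8b, C8g and C9 are the members that assemble on C5b into the pore. All 5 were negative in both genotype comparisons, with a median log2 difference of -1.79 on chow and -1.32 on the NASH diet. All 5 were also positive for males, and WT chow was all male while KO chow held 2 females. Fits with sex are therefore given for single genes below. Outside the members, Hc (C5) was lower and C7 higher in KO NASH than in WT NASH, as given below. C8a and C8b, the alpha and beta chains of C8, were called on chow and neither was called on the NASH diet. C8a (chr4:104815679-104876398, minus strand) was at 746, 515, 1058, 1124 and 677 CPM in WT chow replicates 1 to 5 and at 339, 262, 145, 296 and 152 CPM in KO chow. Every KO chow library was below every WT chow library, and the 2 females of KO chow were the lowest. The log2 difference was -1.79 (SE 0.422, 95% interval -2.61 to -0.96; edgeR adjusted p = 0.0183, lower in 5 of 5 libraries). It was -1.44 in the fit with a sex term (edgeR adjusted p = 0.017), -1.59 with the length slope (0.016) and -1.45 among males alone (0.0115), and its edgeR adjusted p reached at most 0.0474 when each library was left out in turn. Over the 14 libraries with a slope over 0 it was -1.33 (edgeR adjusted p = 0.0785). That fit keeps replicates 1 and 2 of WT chow and replicates 1 to 3 of KO chow.

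C8b (chr4:104766317-104804548, plus strand) followed the same order on chow. It was at 359, 254, 703, 652 and 543 CPM in WT chow and at 137, 87.2, 59.9, 194 and 87.3 CPM in KO chow, again without overlap. The log2 difference was -2.15 (SE 0.554; edgeR adjusted p = 0.0276), -1.60 with sex as a term (0.0323), -1.77 with the slope (0.018) and -1.69 over the libraries with a slope over 0 (0.0461). The call was lost without WT chow replicate 3, 4 or 5 or KO chow replicate 1, 2 or 3, with edgeR adjusted p between 0.0513 and 0.0776. The ratio of C8a to C8b in CPM was 1.25 to 2.07 (WT chow), 1.66 to 3.21 (WT NASH), 1.52 to 3.00 (KO chow) and 2.32 to 4.47 (KO NASH), so the ratio was highest in KO NASH but its range overlapped those of WT NASH and KO chow.

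On the NASH diet the C8a and C8b differences rested largely on 1 WT library. C8a was at 607, 185, 226, 1227 and 288 CPM in WT NASH and 293, 258, 312, 350.0 and 293 CPM in KO NASH, a log2 difference of -0.75 (SE 0.412; edgeR adjusted p = 0.262). C8b was at 200, 57.7, 85.2, 741 and 110 CPM in WT NASH and 127, 57.8, 84.6, 83.1 and 125 CPM in KO NASH, a difference of -1.32 (SE 0.54; edgeR adjusted p = 0.125). WT NASH replicate 4, the only male of its group and the only one with a length slope under 0, was the highest library of the group for C6, C8a, C8b, C8g and C9. With sex as a term the C8b difference on the NASH diet was -1.79 (edgeR adjusted p = 0.0182), and over libraries with a slope over 0, which leave out that library, it was -0.25 (0.635). For C8a the interaction was 1.04 (edgeR adjusted p = 0.697), so the drops on chow and on the NASH diet were not shown to differ.

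C9, the subunit that polymerises to line the pore, was at 482, 412, 1477, 1138 and 904 CPM in WT chow and 234, 199, 126, 512 and 216 CPM in KO chow. In WT NASH it was at 257, 298, 274, 3318 and 278 CPM and in KO NASH at 227, 209, 229, 273 and 221 CPM. KO chow overlapped WT chow through 1 library of KO chow (512 CPM), and KO NASH overlapped the 4 females of WT NASH. The log2 differences were -1.78 on chow (SE 0.64; edgeR adjusted p = 0.113) and -1.93 on the NASH diet (SE 0.643; 0.0612). With sex as a term the NASH-diet difference was -2.07 (edgeR adjusted p = 0.0234). C8g, the gamma chain, was -0.98 on chow (edgeR adjusted p = 0.359) and -1.71 on the NASH diet (0.0622). On chow it was at 184 to 912 CPM for WT and 105 to 642 CPM for KO. On the NASH diet it was at 191 to 1281 CPM for WT, or 191 to 385 CPM in the 4 females, and 101 to 192 CPM for KO. Over libraries with a slope over 0, which leave out WT NASH replicate 4, C8g was called on the NASH diet.

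C6 (chr15:4727175-4814967, plus strand), which binds C5b first, separated the sexes. In WT chow, all male, it was at 227, 219, 267, 173 and 226 CPM. In WT NASH it was at 33.2, 17.1, 39.0 and 23.6 CPM in the 4 females and 420 CPM in the male. KO chow had 36.7 and 17.7 CPM in its females against 101, 93.5 and 57.8 CPM in its males, and KO NASH 24.2 CPM in its female against 106, 136, 82.3 and 110 CPM in its males. Every female was below every male, over all groups. In the model of group plus sex, males were higher by 2.51 on the log2 scale (SE 0.312, 95% interval 1.90 to 3.13; edgeR adjusted p = 5.39e-05), and by 1.84 without WT NASH replicate 4 (edgeR adjusted p = 0.00353). C6 was called for sex in all 28 alternatives tried. Without sex as a term C6 was -1.86 in KO chow against WT chow (SE 0.721; edgeR adjusted p = 0.146), and with it -0.98 (0.157). Among males alone C6 was -1.39 on chow (edgeR adjusted p = 0.00831) and -1.92 on the NASH diet, the latter against 1 WT NASH male. Over libraries with a slope over 0 it was 1.69 higher on the NASH diet (edgeR adjusted p = 0.0131). That fit sets the 4 females of WT NASH against 4 males and 1 female of KO NASH, so genotype and sex cannot be told apart in it.

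Of the members 2 were called for sex, or 4.44% against 1.02% of all genes (0.54% higher and 0.478% lower in males), and the other was C8b, with males higher by 1.47 (SE 0.338; edgeR adjusted p = 0.0364). All 5 pore genes were positive for males, with a median of 1.47 against -0.17 for the 45 members and 0.01 for all genes. The C8b call for sex was lost in 14 of 28 alternatives: without WT NASH replicate 4 it was 0.90 (edgeR adjusted p = 0.591), and it was also lost without WT chow replicate 5, WT NASH replicate 2, 3 or 5, KO chow replicate 1, 3 or 4, or KO NASH replicate 1 or 5.

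**Figure D3:**
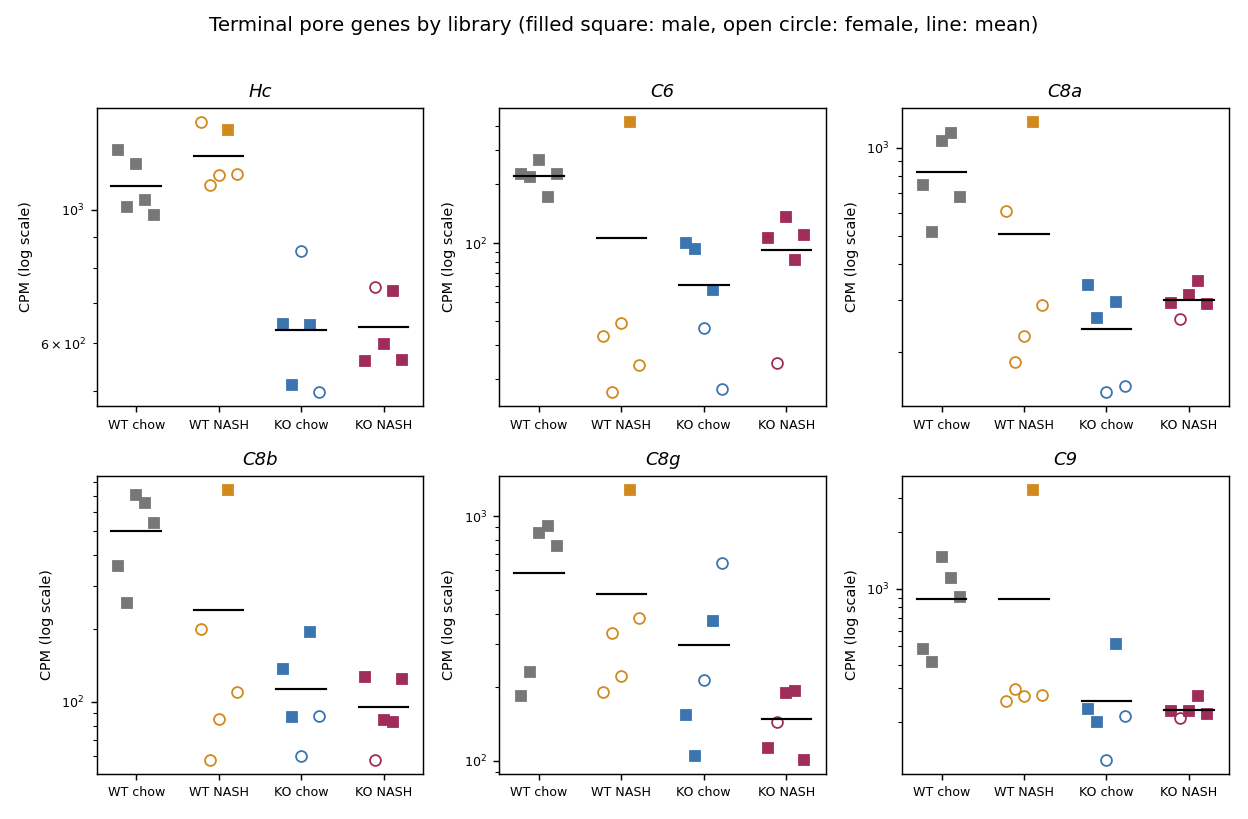
Levels in CPM (vertical, log scale) of Hc, C6, C8a, C8b, C8g and C9 in the 20 libraries by group, with males and females marked. The KO chow libraries of C8a (145 to 339 CPM) sit below all WT chow libraries (515 to 1124 CPM), and the females sit below the males for C6.

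The initiating proteases and lectins were lower in part. Of 8 genes, 6 were negative on chow (median -0.54) and 7 on the NASH diet (median -0.41), with C1s1 called on chow and Mbl2 on the NASH diet. C1s1 (chr6:124530345-124542359, minus strand), the protease that cleaves C4 and C2, was at 593, 561, 740, 704 and 831 CPM in WT chow and 343, 294, 458, 437 and 466 CPM in KO chow, without overlap. The log2 difference was -0.78 (SE 0.199, 95% interval -1.17 to -0.39; edgeR adjusted p = 0.0263), -0.75 with sex as a term (0.05, called) and -0.68 with the slope (0.00869). It was -0.65 (edgeR adjusted p = 0.0931) over libraries with a slope over 0, and the call was also lost without WT chow replicate 3, 4 or 5 or KO chow replicate 1 or 2, at most 0.0823. For the NASH diet the values were 472, 459, 601, 695 and 460 CPM in WT and 418, 326, 313, 458 and 377 CPM in KO, a difference of -0.51 (edgeR adjusted p = 0.11), although the highest KO library (458 CPM) was just under the lowest WT library (459 CPM). An antisense gene model, Gm16567, overlaps 18.4% of the exonic bases of C1s1 and is no row of the table.

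C1ra (chr6:124512405-124523443, plus strand), the protease that activates C1s, was at 247, 234, 238, 193 and 218 CPM in WT chow and 186, 135, 177, 167 and 123.2 CPM in KO chow. The groups did not overlap, and the difference of -0.52 missed the threshold (edgeR adjusted p = 0.0682). With the slope as a term it was -0.54 (edgeR adjusted p = 0.0203). With the NASH diet C1ra was at 173 to 256 CPM in WT and 153 to 180 CPM in KO, a difference of -0.32 (edgeR adjusted p = 0.218).

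Mbl2 (chr19:30232942-30239687, plus strand), mannose-binding lectin C, which recognises sugars on microbes, was at 402, 649, 515, 982 and 761 CPM in WT NASH and 127, 255, 218, 238 and 112 CPM in KO NASH. No KO NASH library reached the lowest WT NASH library. The log2 difference was -1.80 (SE 0.546; edgeR adjusted p = 0.042), -1.53 with sex as a term (0.115), -1.31 with the slope (0.0115) and -0.64 with both (0.152). The call was also lost without WT chow replicate 3, WT NASH replicate 2, 4 or 5, KO chow replicate 4, or any 1 of the KO NASH libraries, with an edgeR adjusted p of at most 0.117. On chow Mbl2 was at 208, 209, 602, 669 and 628 CPM in WT and 66.1, 32.6, 234, 216 and 513 CPM in KO, a difference of -1.12 (edgeR adjusted p = 0.256). In WT chow the 3 high libraries are those with a slope under 0.

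Mbl1, mannose-binding lectin A, was -0.80 on chow and -1.29 on the NASH diet (edgeR adjusted p = 0.429 and 0.126), with 110 to 168 CPM in KO NASH and 173 to 871 CPM in WT NASH. C4b, the substrate of C1s, did not overlap between WT diets or between genotypes on the NASH diet: it was at 49.2 to 96.2 CPM in WT chow, 102 to 132 CPM in WT NASH, 30.4 to 79.1 CPM in KO chow and 57.4 to 91.0 CPM in KO NASH. Its differences were 0.69 for diet in WT (edgeR adjusted p = 0.103), -0.56 for genotype on chow (0.209) and -0.75 for genotype on the NASH diet (0.0566). Masp1, a protease of the lectin route, ranged from 33.8 to 95.8 CPM in WT on chow and from 66.4 to 122.5 CPM on the NASH diet, a difference of 0.78 (edgeR adjusted p = 0.0697), while its genotype differences were -0.01 and -0.27. Masp2, which cleaves C4 and C2, differed between genotypes by 0.04 on chow and -0.03 on the NASH diet (edgeR adjusted p = 0.924 and 0.94), and Tardbp on the opposite strand overlaps 54.9% of its exonic bases. C2 had few reads, at 0.0646 to 1.09 CPM. Other gene models overlap 46.9% of its exonic bases, mostly the same-strand Gm20547. How the counting treated shared bases is not known, so the low count may not give the level of C2 RNA.

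In the amplification loop, Cfd stood apart. Cfd (chr10:79890853-79892655, plus strand) encodes factor D, or adipsin, the protease that cleaves factor B and is made largely by fat cells. It had 0, 0, 2, 3 and 16 reads in WT chow, 1, 0, 0, 0 and 0 in WT NASH, 68, 18, 3, 70 and 4 in KO chow, and 158, 84, 118, 1135 and 208 in KO NASH. The KO NASH libraries, at 6.74, 3.59, 7.33, 54.4 and 9.43 CPM, were all above WT NASH and, apart from the lowest, above every KO chow library (0.149 to 5.08 CPM), and replicate 4 alone held most of the reads. The gene passed the low-count filter through KO NASH, the group where it is high, so its adjusted p-values below are descriptive only. Over summed reads the ratio of KO NASH to WT NASH was 1144 (1703 reads against 1), with a 95% counting interval of 205 to 45226, and that of KO chow to WT chow was 5.64 (163 against 21, interval 3.57 to 9.35). WT chow replicate 5 held 16 of those 21 reads, and without it the ratio on chow was 18.8 (163 against 5, interval 7.90 to 58.7). Without KO NASH replicate 4 the ratio on the NASH diet was 475 (568 against 1, interval 84.98 to 18809). All these intervals cover counting error only. The fitted log2 difference on the NASH diet, which depends on the near-zero WT NASH counts, was 9.58 (SE 1.6; edgeR adjusted p = 0.000687, higher in 5 of 5 libraries) and 8.31 without KO NASH replicate 4 (0.00108). Without WT NASH replicate 1, which holds the only read of its group, the fitted value was 11.14 (edgeR adjusted p = 0.00499). It was not called among males alone (11.37; edgeR adjusted p = 0.0595), where WT NASH is 1 library. On chow the fitted difference was 2.54 (edgeR adjusted p = 0.178), and between KO NASH and KO chow 3.15 (0.0569).

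Of 6 adipocyte markers, Lep was at 0 in every library, Adipoq had 0 to 9 reads, and in KO NASH Retn had 0 to 5 and Plin1 0 to 3 reads. Summed, the 6 gave 20.995 to 57.8 CPM (WT chow), 26.5 to 49.2 CPM (WT NASH), 55.8 to 175 CPM (KO chow) and 41.5 to 520.0 CPM (KO NASH). In KO NASH Lpl was at 519 and 449 CPM in replicates 1 and 5 and at 26.2 to 52.8 CPM in the others. KO NASH replicate 4, the highest for Cfd, had 26.2 CPM of Lpl and 2 Adipoq reads, but 46.7 CPM of Cidea, which encodes a lipid-droplet protein. Cidea was at 52.5 CPM in replicate 3 and at 0 to 0.597 CPM in the other KO NASH libraries, and at 0 to 2.53 CPM in the other 3 groups. The part of fat cells in the Cfd values was not tested.

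The other genes of the loop did not pass the test. C3, which all routes cleave, was the third most abundant member per kilobase of exon (1192 CPM per kilobase on average), at 8140, 6758, 4354, 5116 and 4309 CPM in WT chow and 5016, 1647, 7132, 3103 and 4270 CPM in KO chow, a difference of -0.44 (edgeR adjusted p = 0.51). Under the NASH diet it stood at 13651, 10801, 8904, 4778 and 10344 CPM in WT and 3863, 6133, 4887, 5194 and 4167 CPM in KO, a difference of -0.9996 (edgeR adjusted p = 0.0644). The low WT NASH library is the male, and with sex as a term the difference was -0.46 (edgeR adjusted p = 0.491). Cfp (chrX:20925454-20931555, minus strand) encodes properdin, which stabilises the alternative convertase and is made by myeloid cells. It was at 31.6, 40.3, 58.4, 63.0 and 41.1 CPM in WT NASH and 18.2, 26.6, 22.7, 15.7 and 18.8 CPM in KO NASH, without overlap, a difference of -1.20 (SE 0.442; edgeR adjusted p = 0.0905). In WT chow it was at 13.7, 54.6, 42.8, 85.2 and 24.9 CPM and in KO chow at 22.4, 22.4, 49.9, 53.9 and 120 CPM. Markers of macrophages and Kupffer cells were also low in KO NASH, at a summed 312 to 421 CPM against 439 to 836 CPM in WT NASH and 443 to 1164 CPM in KO chow. In WT chow they summed to 287 to 1005 CPM, which overlapped KO NASH, and their part in the Cfp values was not tested. Cfb, factor B, was at 2.94 to 43.7 CPM with differences of 0.52 and 1.21 (edgeR adjusted p = 0.727 and 0.304), and 79.5% of its exonic bases overlap Gm20547.

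Regulators and the receptor were not called. C4bp, which inactivates C4b, was -1.27 on chow and -0.77 on the NASH diet (edgeR adjusted p = 0.124 and 0.311). Cfi, the protease that degrades C3b and C4b, was -0.38 and -0.69 (edgeR adjusted p = 0.467 and 0.11), with 366 to 576 CPM in KO NASH below the 609 to 788 CPM of WT NASH. Serping1, the C1 inhibitor, was -0.23 and -0.36 (edgeR adjusted p = 0.573 and 0.273), and C5ar1, the C5a receptor of myeloid cells, was at 0.581 to 3.40 CPM throughout.

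The contact system of coagulation differed from gene to gene. F11 and Klkb1, adjacent genes on chromosome 8 that encode the related proteases factor XI and plasma prekallikrein, were called lower in knockout liver on both diets, while F12, which activates both, and Kng1, the kininogen that carries them, were not called. F11 (chr8:45241174-45262031, minus strand) was at 51.8, 57.0, 25.8, 16.0 and 39.8 CPM in WT chow and 14.5, 13.3, 29.4, 17.8 and 9.72 CPM in KO chow, with overlap. In WT NASH it was at 105, 71.7, 96.0, 63.7 and 74.1 CPM and in KO NASH at 26.9, 27.4, 18.2, 19.7 and 24.7 CPM, and here the highest KO library was below the lowest WT library. WT NASH was also above every WT chow library. Between genotypes on the NASH diet the log2 difference was -1.81 (SE 0.314; edgeR adjusted p = 0.00142), -1.59 with sex as a term (0.0149), -1.97 with the slope (8.8e-05) and -1.48 among males alone (0.057). It was called with each of the 20 libraries left out in turn.

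On chow F11 was -1.17 (SE 0.31; edgeR adjusted p = 0.0317), -1.33 with sex as a term (0.0215), -1.28 with the slope (0.00392) and -1.50 over libraries with a slope over 0 (0.0108). The chow call was lost without WT chow replicate 1, 2 or 5 or KO chow replicate 1, 2 or 5, with an edgeR adjusted p of at most 0.0929. In WT the NASH diet raised F11 by 1.11 (SE 0.308; edgeR adjusted p = 0.0386), a call that was lost with sex as a term (0.80; 0.368), among males alone (0.71; 0.529) and over libraries with a slope over 0 (0.69; 0.175). That call was also lost without WT chow replicate 3, 4 or 5 or WT NASH replicate 1, 2, 3 or 5, with an edgeR adjusted p of at most 0.0971. In knockout liver the diet difference was 0.46 (edgeR adjusted p = 0.37), and the interaction was -0.64 (0.775), so the diet response was not shown to differ between genotypes.

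Klkb1 (chr8:45266689-45294859, minus strand) was at 398, 421, 684, 418 and 606 CPM in WT chow and 118, 80.8, 317, 305 and 329 CPM in KO chow. In WT NASH it was at 412, 350, 422, 442 and 352 CPM and in KO NASH at 152, 187, 219, 269 and 137 CPM. The genotypes did not overlap on either diet. The differences were -1.14 on chow (SE 0.326; edgeR adjusted p = 0.0443) and -1.04 on the NASH diet (SE 0.325; 0.0482). With sex as a term they were -1.31 (edgeR adjusted p = 0.0349) and -0.84 (0.178), and with the slope -1.04 (0.0174) and -0.87 (0.0338). Both calls were close to the threshold: the chow call held in 5 of the 20 fits that left out 1 library (WT NASH replicate 4, KO chow replicate 3, 4 or 5, KO NASH replicate 4) and the NASH-diet call in 5 (KO chow replicate 1, 2, 3 or 5, KO NASH replicate 4), and the edgeR adjusted p otherwise reached 0.125 and 0.139. A same-strand gene model, Gm45753, overlaps 43.2% of the exonic bases of Klkb1.

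F12 was at 423, 440, 495, 446 and 470 CPM in WT chow and 455, 387, 479, 481 and 391 CPM in KO chow, a difference of -0.05 with a 95% interval of -0.35 to 0.24. Its NASH-diet values were 402, 384, 366, 303 and 389 CPM in WT and 379, 371, 421, 369.9 and 385 CPM in KO, a difference of 0.06 with an interval of -0.23 to 0.36. The genotypes overlapped on both diets. Kng1 was at 2479, 2176, 2760, 3200 and 3566 CPM in WT chow. WT NASH livers had 2063, 1917, 2114, 1618 and 1860 CPM, and KO livers 1953, 1297, 2712, 3596 and 2844 CPM in KO chow and 1678, 1613, 1471, 1297 and 1619 CPM in KO NASH. Its genotype differences were -0.19 (interval -0.65 to 0.27) and -0.32 (-0.78 to 0.14). For diet, Kng1 in WT NASH was below every WT chow library, at -0.57 (edgeR adjusted p = 0.162), and F12 and Masp2 did not overlap between the WT diets either, at -0.30 and -0.28 (0.239 and 0.298). The members whose groups did not overlap numbered 5 of 45 for diet in WT (6.15% of all genes), 7 for genotype on chow (4.91%), 17 for genotype on the NASH diet (14.1%) and 0 for diet in KO (8.5%).

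**Figure D4:**
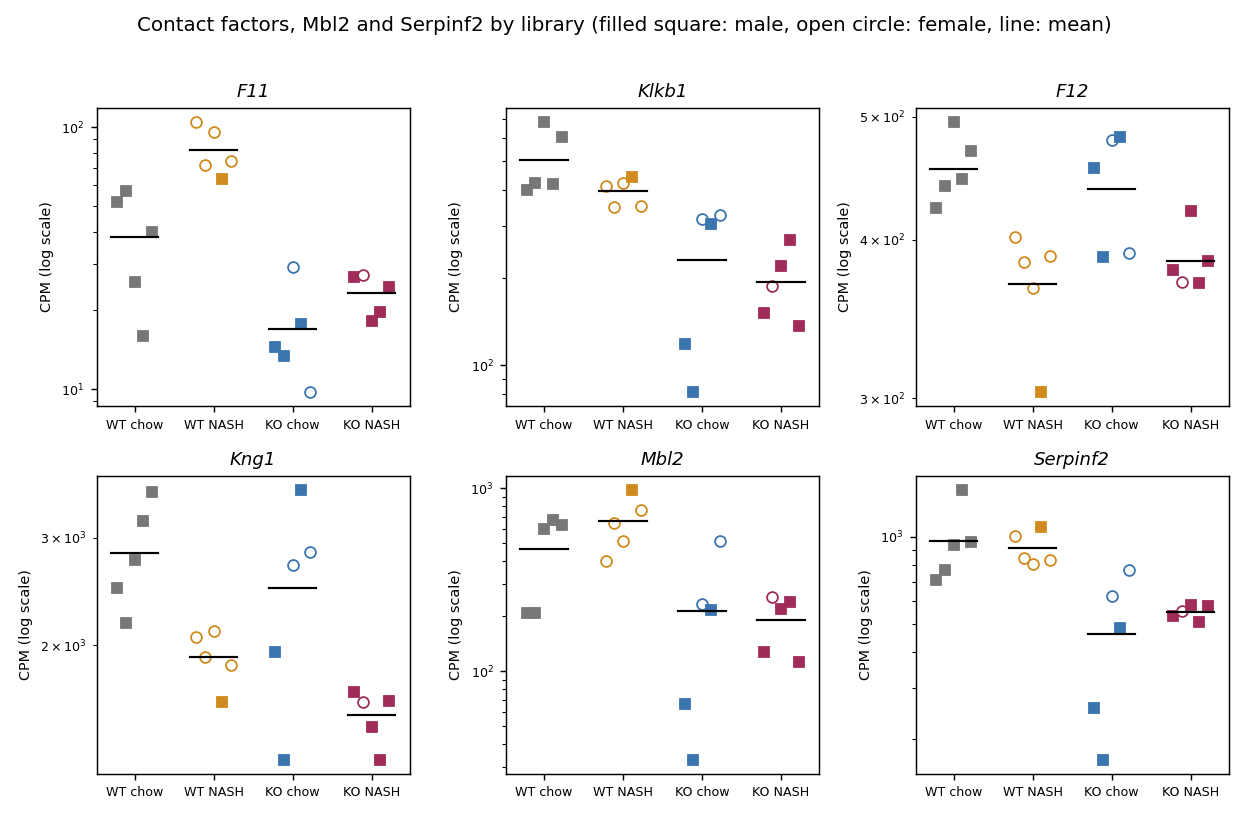
Levels in CPM (vertical, log scale) of F11, Klkb1, F12, Kng1, Mbl2 and Serpinf2 in the 20 libraries by group, with males and females marked. KO NASH libraries of F11 (18.2 to 27.4 CPM) sit below WT NASH (63.7 to 105 CPM), while those of F12 (369.9 to 421 CPM) overlap WT NASH (303 to 402 CPM).

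The vitamin K-dependent proteases and their cofactors were not called. F2 (prothrombin) was -0.28 on chow and -0.39 on the NASH diet, F7 -0.38 and -0.66, F9 -0.49 and -0.51, and F10 0.25 and -0.11, with edgeR adjusted p of 0.562 and 0.315 for F2 and 0.531 and 0.176 for F7. The cofactors F5 and F8 were at -0.25 and -0.13 and at -0.02 and 0.03. Kng2, the second kininogen, was at -0.03 and 0.12 (edgeR adjusted p = 0.96 and 0.819). Over the 11 coagulation proteases and cofactors, kininogens included, 10 were negative on chow (median -0.25) and 8 on the NASH diet (median -0.32).

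The 3 fibrinogen chains, which lie together on chromosome 3 and assemble into 1 protein, were among the most abundant members per kilobase of exon, with means of 2428 CPM per kilobase for Fgg, 1248 for Fgb and 1121 for Fga. None was called. Fgg was at 3276, 2873, 9025, 22360 and 9478 CPM in WT chow and 1445, 599.9, 3021, 4718 and 5648 CPM in KO chow, a log2 difference of -1.61 (edgeR adjusted p = 0.106). NASH-diet levels of Fgg were 4282, 3618, 3774, 11233 and 4835 CPM in WT and 1901, 3375, 2346, 1887 and 1937 CPM in KO, a difference of -1.28 (edgeR adjusted p = 0.155). Within WT chow the values spread from 2873 to 22360 CPM, and the 3 high libraries were those with a length slope under 0.

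Fgb was -0.996 on chow and -0.80 on the NASH diet (edgeR adjusted p = 0.126 and 0.173), and Fga -0.54 (95% interval -1.21 to 0.13) and -0.63 (0.416 and 0.252). The ratio of Fgg to Fga in CPM was 3.13 to 5.45 in 5 of the 6 libraries with a slope under 0 and 1.37 in the other (KO chow replicate 4), against 0.683 to 0.861 in the remaining 14. The ratio of Fgb to Fga likewise lay between 1.61 and 3.65 where the slope was under 0, against 0.879 to 1.27 elsewhere. Exonic lengths are 2093 bases for Fgg, 3010 for Fga and 3810 for Fgb, so both the shortest and the longest chain were higher against Fga where the slope was under 0, and what sets these ratios was not tested. F13b, the carrier subunit of the enzyme that crosslinks fibrin, was -0.67 and -0.96 (edgeR adjusted p = 0.323 and 0.0992), with 187 to 212 CPM in KO NASH below the 264 to 771 CPM of WT NASH.

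Among the inhibitors and the fibrinolytic genes, Serpinf2 fell in KO chow and Thbd rose with the diet in KO. Serpinf2 (chr11:75431732-75439591, minus strand) encodes alpha-2-antiplasmin, which blocks plasmin. It was at 709, 771, 934, 1456 and 959 CPM in WT chow and 256, 169, 627, 483 and 766 CPM in KO chow, where the highest KO library, a female, exceeded the lowest WT library. The difference was -1.07 (SE 0.311; edgeR adjusted p = 0.0475), -1.31 with sex as a term (0.0268), -0.96 with the slope (0.0182) and -1.07 over libraries with a slope over 0 (0.0986). The call held in 4 of the 20 fits that left out 1 library (WT chow replicate 1, WT NASH replicate 4, KO chow replicate 3 or 5), and its edgeR adjusted p otherwise reached 0.137. Under the NASH diet Serpinf2 was at 1009, 845, 805, 1082 and 831 CPM in WT and 535, 554, 579, 509 and 575 CPM in KO, without overlap, a difference of -0.73 (SE 0.309; edgeR adjusted p = 0.138).

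Thbd (chr2:148404466-148408188, minus strand) encodes thrombomodulin, the endothelial receptor that turns thrombin towards activating protein C. It was at 6.48, 5.95, 4.60, 3.63 and 4.31 CPM in KO chow and 13.5, 8.55, 10.1, 6.18 and 9.52 CPM in KO NASH, where 4 of 5 libraries were above all of KO chow. The difference was 0.93 (SE 0.241; edgeR adjusted p = 0.0404), 0.91 with sex as a term (0.0466), 0.80 with the slope (0.035) and 0.86 among males alone (0.247). The call was lost without WT NASH replicate 2 or 5, KO chow replicate 1, 3, 4 or 5, or KO NASH replicate 1, 2, 3 or 5, with an edgeR adjusted p of at most 0.0986. In WT it was at 2.98 to 6.67 CPM on chow and 5.75 to 7.69 CPM on the NASH diet, a difference of 0.42 (edgeR adjusted p = 0.313), and the interaction was 0.51 (0.774). Markers of sinusoidal endothelium summed to 316 to 406 CPM in KO chow and 272 to 422 CPM in KO NASH, so these overlapped.

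Of the other inhibitors, Serpinc1 (antithrombin) was -0.34 on chow and -0.58 on the NASH diet (edgeR adjusted p = 0.367 and 0.0693), and Zbtb37 on the opposite strand overlaps 34.4% of its exonic bases. Serpind1 (heparin cofactor II) was -0.77 and -1.09 (edgeR adjusted p = 0.338 and 0.115), and Proc (protein C) -0.56 and -0.45 (0.228 and 0.274). Plg, plasminogen, was at 2611 to 3689 CPM in WT chow, 955 to 2544 CPM in KO chow, 2633 to 2918 CPM in WT NASH and 1665 to 1919.6 CPM in KO NASH. It did not overlap between genotypes on either diet, with a difference of -0.59 on each (edgeR adjusted p = 0.142 and 0.105). Cpb2, which protects fibrin from plasmin, was -1.04 and -1.85 (edgeR adjusted p = 0.368 and 0.0613), with 152 to 215 CPM in KO NASH below the 279 to 1878 CPM of WT NASH. Pros1, the cofactor of protein C, was positive, at 0.36 and 0.92 (edgeR adjusted p = 0.647 and 0.134), and Tfpi, the inhibitor of the tissue factor route, was at 0.02 and 0.12. Over the 9 genes of this group, 6 were negative in each genotype comparison.

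**Figure D5:**
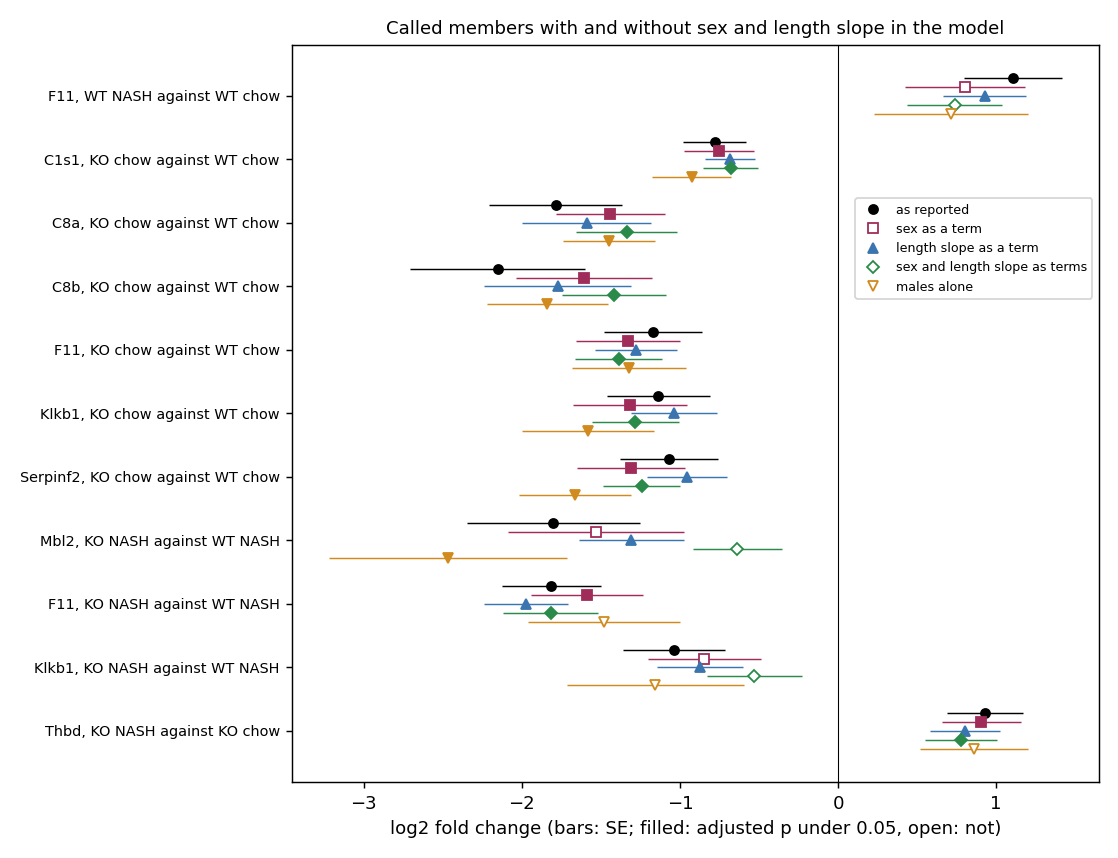
Log2 difference (horizontal) of the members called for diet or genotype, except Cfd, under 5 settings. The settings are no added terms, sex, the length slope, both, and males alone. Filled points have an edgeR adjusted p under 0.05. Cfd and the calls for sex are not plotted. The differences for genotype keep their sign throughout, and F11 on the NASH diet is called in 4 of the 5 settings.

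A list of 66 further complement and coagulation genes was examined in the same fit, of which 65 were in the table and 58 passed the filter. For diet in WT 1 of the 58 was called (1.72%, against 5.93% of all genes), Vkorc1l1, a paralog of the vitamin K epoxide reductase (-0.67; edgeR adjusted p = 0.046), a call lost without any of WT chow replicates 1, 3, 4 and 5, WT NASH replicates 1, 2, 3 and 5, KO chow replicates 1 and 3 and KO NASH replicates 3 and 4 (at most 0.129). In the fit with sex Vkorc1l1 was -0.32 (edgeR adjusted p = 0.497), and among males alone -0.03 (0.975). For genotype on chow 4 were called (6.9%, against 5.53% of all genes). Hc, which encodes C5, the precursor of the pore, was at 1258, 1010, 1192, 1038 and 978 CPM in WT chow and 644, 511, 854, 644 and 497 CPM in KO chow. The difference was -0.80 (SE 0.187, edgeR adjusted p = 0.0175). The call was lost without KO chow replicate 2 (-0.73, edgeR adjusted p = 0.0559) and over libraries with a slope over 0 (-0.75, 0.07). It was also lost without the low-count filter and from the 2 groups only, with an edgeR adjusted p of at most 0.141. On the NASH diet Hc was at 1399.6, 1100.2, 1139.8, 1355 and 1146 CPM in WT and 560.0, 742, 598, 732 and 562 CPM in KO, a difference of -0.94 (edgeR adjusted p = 0.00414) that was called in all 32 alternatives. The genotypes did not overlap for Hc on either diet.

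The other calls on chow were Mug1, a murinoglobulin protease inhibitor, lower by a log2 difference of -1.86 (edgeR adjusted p = 0.00847) and called with each library left out, Proz, protein Z, at -1.06 (0.0222), and F13a1, the catalytic subunit of factor XIII, at 2.23 (0.0429). From the 2 groups only, the Mug1 call was lost (edgeR adjusted p = 0.0692), and so were those of Proz and F13a1. The Proz call was lost without WT chow replicate 4 or 5 or KO chow replicate 1 (edgeR adjusted p at most 0.0712) and over libraries with a slope over 0 (-1.04; 0.0763). F13a1 was at 8.57 CPM in KO chow replicate 5 and 0.693 to 1.21 CPM in the other KO chow libraries, and without that library the difference was 0.93 (edgeR adjusted p = 0.161). That call was also lost without any WT chow library, WT NASH replicate 2 or 3, KO chow replicate 2, or KO NASH replicate 1, 2, 3 or 5, and with sex as a term it was 1.53 (edgeR adjusted p = 0.216). For genotype on the NASH diet 8 of 58 were called (13.8%, against 9.65% of all genes). Lower were Hc, Cfhr2, a factor H-related protein (-1.83; edgeR adjusted p = 0.02), Hgfac, a serine protease of plasma (-0.95; 0.0282), and Tfpi2 (-1.88; 0.0331), which was -1.22 (0.146) without WT NASH replicate 4. Higher were C7, a pore component made largely outside hepatocytes (2.17; edgeR adjusted p = 0.0163), F3, tissue factor (0.79; 0.0294), Anxa2, a cell-surface receptor for plasminogen (1.27; 0.0221), and Plat, tissue plasminogen activator (2.1998; 0.0343). C7 and Anxa2 were lost without KO NASH replicate 1 or 5, Cfhr2 without either of these or WT NASH replicate 4 (-1.21; edgeR adjusted p = 0.0771), and F3 without WT NASH replicate 1 or 4 or KO NASH replicate 3 or 4. The Tfpi2 call was also lost without WT NASH replicate 2 or 5 or any KO NASH library, that of Plat without WT NASH replicate 1, 2, 3 or 5 or KO NASH replicate 1 or 5, and that of Hgfac without WT NASH replicate 1, 2 or 5 or KO NASH replicate 1, 3 or 5. With sex as a term 2 of these 8 were called, Hc and Cfhr2. Hgfac was then -0.42 (edgeR adjusted p = 0.318), and -0.08 among males alone (0.903), where WT NASH is 1 library. Plat was 1.63 in the fit with sex (edgeR adjusted p = 0.174) and 0.98 among males alone (0.508). In the fit with sex C7 was 1.88 (edgeR adjusted p = 0.114), F3 0.72 (0.115), Anxa2 1.21 (0.0876) and Tfpi2 -1.97 (0.0518). For diet in KO, C7 alone was called (2.09; edgeR adjusted p = 0.0363; lost without any KO chow library or KO NASH replicate 1 or 5, at most 0.101, and with sex as a term, 0.0639), and the interaction called none by edgeR. The median difference of the list was -0.08 for diet in WT, -0.07 for genotype on chow and -0.08 for genotype on the NASH diet. Of the 58 genes, 30 were negative for genotype on chow and 32 on the NASH diet, so the list did not share the members' lean. For sex, Serpine2 (2.29; edgeR adjusted p = 0.011) and F2r, the thrombin receptor (1.59; 0.000181), were higher in males. F2r was called in all 28 alternatives, and Serpine2 was lost without KO NASH replicate 2 (0.0618).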

How the data were processed

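The authors deposited 1 table of raw counts per gene symbol for the 20 livers, whole numbers with no replicates pooled. Reads were aligned with HISAT2 2.0.4 to GRCm38, per the submitters' processing notes; the sources used here do not give the counting program, the annotation or whether counting used the strand. Columns named HFD were matched to the NASH groups, since the remaining columns named chow. Depth was 9958935 to 20601955 counts per library.

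The analysis ran in edgeR 4.0.16 under R 4.3.3: filterByExpr (minimum count 10), which kept 14440 genes holding 99.91% of counts, TMM scaling, 1 coefficient for each of 4 groups over all 20 libraries, and the quasi-likelihood F test with Benjamini-Hochberg adjustment over all genes tested. The common biological coefficient of variation was 39.0%. A library was taken as male where its 4 Y-linked genes summed to 100 counts or more, and gene coordinates and exonic lengths came from GENCODE M21 on GRCm38. The members and lists were chosen with earlier results of these data known. Values per library are given for each member called in at least 1 of 5 comparisons or for sex, filled to 12 by the smallest unadjusted p, and for further members set beside them after their values were seen. Of the other pathway genes, all called ones are named. The plan had been at most 6 per comparison with a mean of at least 1 CPM.

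Alternatives were no low-count filter, DESeq2 1.42.0, limma 3.58.1 (voom), a fit of the 2 groups of a comparison by themselves, a block for the replicate number, sex and the length slope as terms, males alone, KO NASH replicates 1 and 5 summed, and each library left out. A fit to the libraries with a length slope over 0 was chosen after seeing the data. Scripts were tested on simulated data.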

Additional observations from a re-analysis of the deposited data

Results flagged for a closer look

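Of 48 groups of 5 libraries tested (12 members in 4 groups), 5 held a library far from the others, with a gap to its nearest neighbour above the 95% critical value of Dixon's test. Chance gives about 1 in 20 groups for continuous values. C6 was at 420 CPM (419.582) in WT NASH replicate 4, the male of that group, and the next library was at 39.0 CPM. C8b was at 741 CPM (741.331) in the same library, with the next at 200 CPM (199.826). Cfd gave the other 3. It was at 1.11 CPM (1.10866) in WT chow replicate 5, next 0.285 CPM; at 0.0646 CPM (0.0645642), a single read, in WT NASH replicate 1, the others being at 0, and at 54.4 CPM (54.3815) in KO NASH replicate 4, next 9.43 CPM. The WT NASH case is no evidence of a library that stands apart, since 1 read among 4 zeros always gives the largest possible gap.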

How the results depend on the processing

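No alternative reversed the direction of a called member. From the 2 groups only, the chow genotype calls of C1s1, F11, Klkb1 and Serpinf2 were lost. Without the low-count filter those of C1s1, Klkb1 and Serpinf2 were lost. The call of F11 for diet in WT and that of Thbd for diet in KO were lost in both of these fits. Members called for diet in WT (1) numbered 0 without the low-count filter, 4 with DESeq2, 23 with voom, 0 from the 2 groups only, 0 with sex, 3 with the length slope, 0 with both, 0 in males alone and 2 over libraries with a slope over 0, and 0 to 6 with 1 library left out (6 without WT NASH replicate 4). For genotype on chow (6) they numbered 3 without the filter, 10 with DESeq2, 27 with voom, 3 from the 2 groups, 10 with the slope, 17 with both and 3 over libraries with a slope over 0, and 1 to 9 with 1 library left out (1 without WT chow replicate 5 or KO chow replicate 1 or 2). For genotype on the NASH diet (4) they numbered 13 with DESeq2, 22 with voom, 18 from the 2 groups, 10 with the slope, 10 in males alone, 2 with KO NASH replicates 1 and 5 summed and 16 over libraries with a slope over 0, and 2 to 8 with 1 library left out (8 without KO chow replicate 2 or 5). For diet in KO (1) they numbered 0 without the filter, 3 with DESeq2, 3 with voom, 0 from the 2 groups, 2 with sex, 2 with the slope, 4 with both, 0 in males alone and 0 with replicates 1 and 5 summed, and 0 to 2 with 1 library left out. For the interaction (0) they numbered 1 with DESeq2 and 7 with voom, and 0 to 1 with 1 library left out (1 without WT NASH replicate 4). For sex (2) they numbered 4 with DESeq2, 1 with voom, 7 with both terms, 1 with replicates 1 and 5 summed and 1 over libraries with a slope over 0, and 1 to 4 with 1 library left out. With voom 5866, 5836 and 3434 of all genes were called in the first 3 comparisons, so its member counts stand on a high background.

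Other pathway genes called for diet in WT (1) numbered 0 without the filter, 4 with DESeq2, 21 with voom, 0 from the 2 groups, 0 with sex, 6 with the slope, 2 with both, 0 in males alone, 4 over libraries with a slope over 0 and 0 to 3 with 1 library left out. For genotype on chow (4) they numbered 23 with voom, 0 from the 2 groups, 9 with the slope, 10 with both, 2 over libraries with a slope over 0 and 2 to 5 with 1 left out. For genotype on the NASH diet (8) they numbered 14 with DESeq2, 22 with voom, 15 from the 2 groups, 2 with sex, 14 with the slope, 3 with replicates 1 and 5 summed, 21 over libraries with a slope over 0 and 2 to 11 with 1 left out. For diet in KO (1) they numbered 4 with DESeq2, 2 with voom, 0 from the 2 groups, 3 with both, 0 in males alone, 0 with replicates 1 and 5 summed, 2 over libraries with a slope over 0 and 0 to 3 with 1 left out. For the interaction (0) voom called 6. The shares and numbers of all genes called that are given above for the members apply here too. The cause of these differences was not tested.

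With the replicate number as a block, members called numbered 3, 8, 6, 2 and 0 in the 5 comparisons and 1 for sex, and other pathway genes 2 for diet in WT. Same-numbered libraries did not deviate together throughout. Over the 4 comparisons 2, 4, 1 and 2 of 5 same-numbered pairs had a correlation over 0.1. In the same order 2, 1, 1 and 1 libraries correlated best with their own number. The correlations were not adjusted for sex or the length slope, so they cannot tell whether the numbers share a batch. KO NASH replicates 1 and 5 were the nearest pair of libraries (chi-square per degree of freedom 7.27) but differed by more than sampling noise. Thbd, C2 and the WT values of Cfd rest on few reads. For C2, the part of depth and of the overlap with Gm20547 was not tested.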

Other observations

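A list of 16 acute-phase genes held mostly proteins secreted in inflammation under interleukin-6, and also Il6ra, Stat3 and Socs3 of interleukin-6 signalling. It was negative throughout in KO NASH against WT NASH: 16 of 16, with a median log2 difference of -1.15. None was called by edgeR (5 had an unadjusted p under 0.05), and DESeq2 and voom called 1 each, Itih4. Saa1, serum amyloid A1, was at 28.6 to 173 CPM in KO NASH and 62.1 to 7471 CPM in WT NASH (-4.15; edgeR adjusted p = 0.076), and Itih4 was at 895 to 2368 CPM and 2389 to 3518 CPM (-1.13; 0.052). With sex and the length slope as terms, 13 were negative and the median was -0.18. On chow 13 of 16 were negative with a median of -0.46, none was called by edgeR (0 with an unadjusted p under 0.05) or DESeq2, and voom called 5. With the length slope as a term edgeR called Itih4 on the NASH diet, and with sex and the slope it called 2 genes lower on chow, Il6ra and Itih4.

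Of 11 liver transcription factors, Foxa3, a forkhead factor of hepatocytes, was called on chow at -1.26 (edgeR adjusted p = 0.043), with 39.8 to 108 CPM in WT chow and 14.1 to 67.7 CPM in KO chow, and the median of the list was -0.29. On the NASH diet the median was -0.31, and edgeR called none (1 at an unadjusted p under 0.05), against 1 by DESeq2 and 2 by voom. Among 8 macrophage genes, Cd68 was higher in KO chow than in WT chow (1.03; edgeR adjusted p = 0.036), and Timd4, a marker of resident Kupffer cells, was lower in KO NASH than in WT NASH (-1.41; 0.041). Neither was called with sex as a term, and both were called with the length slope and with sex and the slope. Cd68 was also called higher for diet in WT, but not with sex or with sex and the slope as terms. Between KO NASH and KO chow 7 of the 8 were negative, with a median of -1.24. That median was -0.74 with the length slope as a term (8 of 8 negative), -0.59 with sex and the slope and -0.43 with voom, and edgeR called none of the 8 (6 had an unadjusted p under 0.05), against 2 by DESeq2 and 1 by voom. Of the 2 groups, only KO chow holds libraries with a slope under 0 (2).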
